A study of Micromonas commoda with 15 samples.

Results

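In cultures of the marine green picoalga Micromonas commoda, 46 of 10300 gene models stood higher with zinc than with iron, whether the metal came as oxide particles or as a dissolved salt. They were chosen by their group means. A model was taken when both zinc exposures were above control by at least 0.5, Fe2O3 particles were above it by less than 1, and zinc exceeded iron by at least 0.5 for particles and for salts. These limits apply to log2 changes from control, taken on read counts scaled to a common library size by the trimmed mean of M values (TMM-scaled CPM) after adding 0.5 CPM. The control mean also had to lie from 1 to under 1000 CPM and the mean of the 5 groups at 5 CPM or more. All 46 members passed the filter on low counts that left 10012 models for testing.

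The strain is RCC299, grown in L1 medium, and each group had 3 libraries collected after 48 h of exposure, which began 24 h after flasks in early exponential growth were set up. The groups were ZnO particles, ZnSO4, Fe2O3 particles, FeCl3 and control cultures with no added particle or salt. The labels give 0.8 mg/L of zinc (1e-05 M as ZnO) and 2.4 mg/L of iron (3e-05 M as Fe2O3), with each salt at the same metal concentration as its particle. The labels leave unsettled whether each figure counts the metal or the oxide. Iron was given at the higher dose by either figure, so zinc and iron were not matched. L1 is an enriched seawater medium whose trace metal mix holds iron and zinc, so control cultures were not free of either. The labels do not say that the 3 libraries of a group came from separately kept cultures, so p-values measure the spread between these libraries, which may be technical. Total counts ran from 33473041 to 48969454 per library.

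Zinc and iron are both micronutrients of algae. Zinc is a structural part of zinc-finger proteins and a cofactor of enzymes such as carbonic anhydrase, and cells move it across membranes with ZIP importers, cation diffusion facilitators and P-type ATPases. Iron sits in the cytochromes and iron-sulfur clusters of photosynthesis and respiration, and in seawater its ferric form has low solubility. ZnO particles are known to release zinc ions in water, while Fe2O3 is sparingly soluble at seawater pH.

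None of the members could be tied to such a role. Of 10297 distinct identifiers in the deposited table, 0 matched the RefSeq genes of assembly ASM9098v2, and the table pairs its identifiers with no names. No sequence could be read for the members, and the labelled organism could not be checked against named genes. The members are therefore called by their rank, from 1 to 46, in the smaller of their zinc minus iron differences. Only the leading pair whose zinc libraries all lay above the iron and control libraries of the same form is given by identifier: wlab.248626.1 (rank 1) and wlab.1257.1 (rank 3). Such libraries were found in 41 members (4.05% of all tested models). Member 2 missed this pair because its libraries overlapped. No member had all 6 iron libraries below all controls (0, beside 19.8% of all), so no identifier is given for that direction.

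The limits narrowed the models step by step, and the one between particles was the one most often missed alone. Of 7657 models in the abundance range, 1097 stood at least 0.5 above control in both zinc exposures, 341 of those were under 1 with Fe2O3 particles, and 235 of those also met the limit between the salts. Demanding 0.5 between ZnO and Fe2O3 particles then left 46 and dropped 189. At that limit the nearest member was at 0.51 and the nearest model outside at 0.498, with 17 members and 35 non-members within 0.1 of it. At the limit between the salts the nearest values were 0.52 inside and 0.49 outside, and for ZnO particles against control they were 0.51 and 0.49. For Fe2O3 particles against control they were 0.99 and 1.01, and for ZnSO4 against control 0.52 and 8.38e-05. Across the members the difference was 0.51 to 1.31 between particles, with a median of 0.63. Between the salts it was 0.52 to 5.06, with a median of 1.25.

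**Figure D1:**
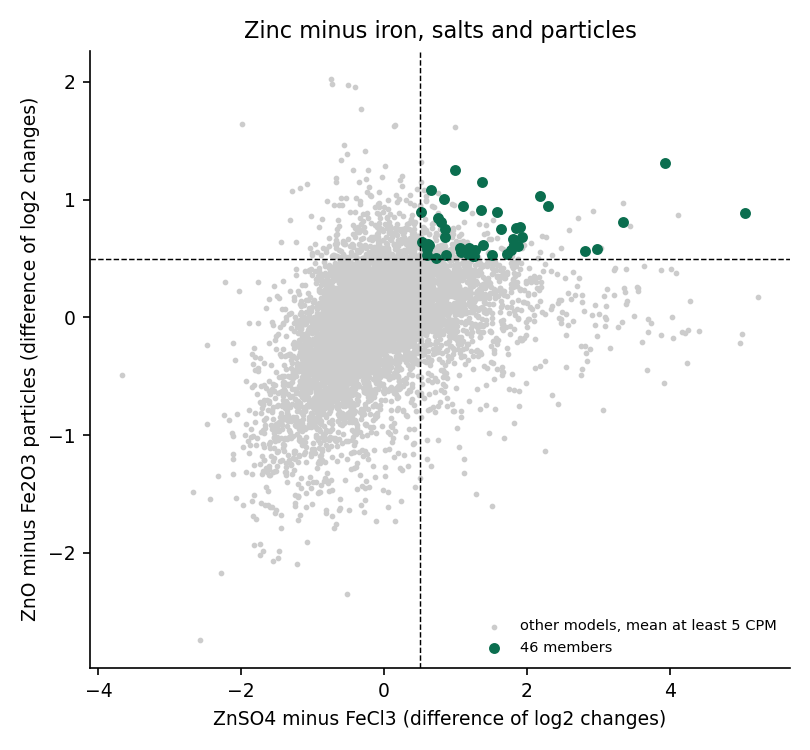
Difference of log2 changes between ZnO and Fe2O3 particles (vertical) against that between ZnSO4 and FeCl3 (horizontal), for the 46 members and for other models averaging 5 CPM or more; dashed lines mark the limits of 0.5. Members crowd near the horizontal line, with a median of 0.63, and spread along the other axis to 5.06; other models in the same corner missed another limit.

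The zinc libraries were high in the members, as the rule required of their means, and close together, while single libraries of the other groups stood apart. The median member lay 0.92, 1.01 and 0.98 above the control mean (log2 scale) in the 3 libraries with ZnO particles, and 1.53, 1.40 and 1.24 above it in those with ZnSO4. In Fe2O3 particle libraries the medians were 0.36, 0.33 and 0.09, and in FeCl3 libraries -0.42, 0.0050 and 0.21. Control libraries had medians of 0.07, -0.32 and 0.13. All 46 members were above the control mean in every zinc library. In Fe2O3 particle libraries 27 to 41 were, and in FeCl3 libraries 14 to 30. The rule asked for raised zinc means and for zinc above iron, so this order was set by the choice of members. Such counts were not taken over all models, and nothing is read from them.

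Within groups, Fe2O3 replicate 3 was the lowest library for 37 members, FeCl3 replicate 1 for 35 and control replicate 2 for 33. These counts were not taken over all models. The rule used the means that these libraries enter, so a low library bears on membership, and its part in the counts was not tested. The spread over 3 libraries was unequal as well. The median coefficient of variation of a member was 7.16% with ZnO particles, 11.8% with ZnSO4, 18.7% with Fe2O3 particles, 22.8% with FeCl3 and 24.8% in controls. For all 7905 models averaging 5 CPM or more it was 6.52%, 10.2%, 14.4%, 12.9% and 17.1% in the same order. Leaving out Fe2O3 replicate 3 left 29 models under the same rule, 20 of them among the 46. Leaving out FeCl3 replicate 1 gave 84, with 44 of the 46, and leaving out control replicate 2 gave 40, with 36 of them. Without ZnO replicate 1 or Fe2O3 replicate 1 there were 85, and without ZnSO4 replicate 2 or 3 there were 86. Leaving out a library can also change the library that TMM scales to; that library was Fe2O3 replicate 3. With it held, among the other 14 libraries the omission of Fe2O3 replicate 1 alone moved the count by over 1.5 times, to 85.

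**Figure D2:**
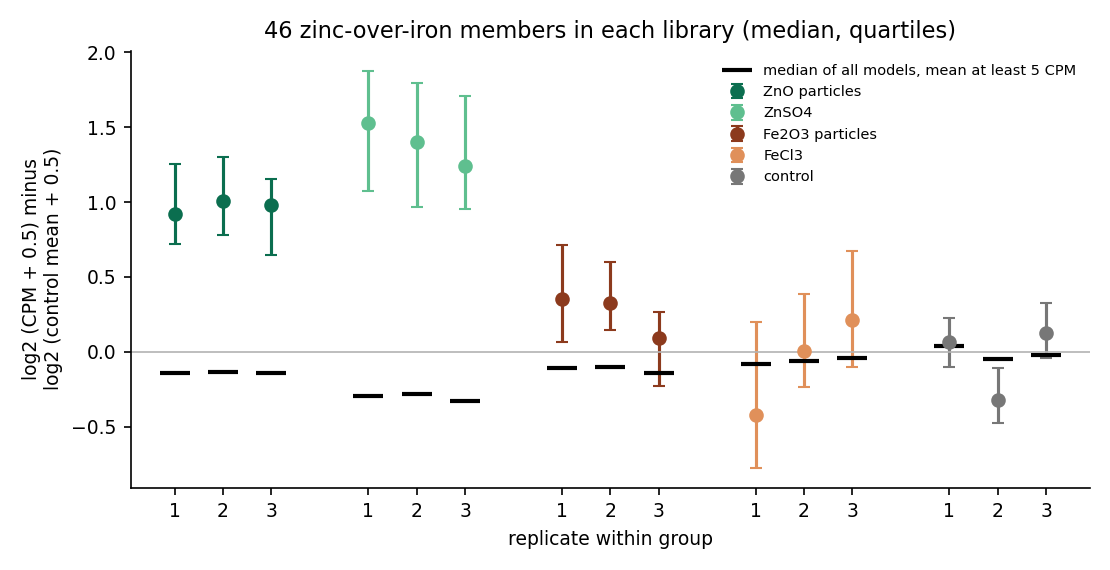
Median (point) and quartiles (bar) of the 46 members in each of 15 libraries, as log2 of CPM plus 0.5 relative to the control mean; black dashes are the medians of all models averaging 5 CPM or more. Members lie near 1 with ZnO particles and from 1.24 to 1.53 with ZnSO4, while Fe2O3 replicate 3, FeCl3 replicate 1 and control replicate 2 sit lowest in their groups.

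Most members were low in abundance. Their control means ran from 1.34 to 120 CPM with a median of 8.37 CPM, 26 were under 10 CPM and 1 was above 100 CPM. Summed over members, they took 1708 ± 38.8 CPM with ZnO particles, 2578 ± 208 CPM with ZnSO4, 1015 ± 176 CPM with Fe2O3 particles, 859 ± 155 CPM with FeCl3 and 887 ± 218 CPM in controls (SD, n = 3 each). A level in CPM is a share of the culture's messenger RNA, so it shows neither the number of cells nor the RNA per cell. An absolute change in a transcript cannot be read from it. The counts behind the levels were small in few cases: 3 members had under 50 reads in their lowest library, and the smallest count was 3 reads.

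The contrasts that chose the members are given as a description only. Of the 46, 41 were called higher than control with ZnO particles at an adjusted p under 0.05 in edgeR's quasi-likelihood test, where 30.1% of all tested models were. All 46 were called higher with ZnSO4 than in controls (22.2% of all) and with ZnSO4 than with FeCl3 (22.7% of all). Between ZnO and Fe2O3 particles 29 were called higher (7.49% of all), so the other 17 met the limit on the means without passing the test. With Fe2O3 particles 16 were called higher than control (35.6% of all). ZnO libraries all lay above Fe2O3 libraries in 45 members (21.1% of all) and ZnSO4 libraries above FeCl3 libraries in 46 (26.4% of all). All 6 zinc libraries lay above all 6 iron libraries in 37 members (4.14% of all), and above all 9 others in 33 members (2.74% of all). Nothing is read from these shares, since the rule used the same differences.

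The model wlab.248626.1 had the largest difference by its smaller value. It stood at 5.27, 7.73 and 10.1 CPM with ZnO particles and at 26.2, 38.1 and 42.4 CPM with ZnSO4. With Fe2O3 particles it was at 2.16, 3.23 and 3.03 CPM, and with FeCl3 at 1.28, 1.57 and 2.71 CPM. Controls were at 0.902, 1.19 and 4.14 CPM. Every zinc library was thus above every other library, and the ZnSO4 libraries were above those with ZnO particles. Between the zinc forms, which the rule did not compare, it was lower with ZnO particles than with ZnSO4, with a log2 fold change of -2.20 (SE 0.407, edgeR adjusted p of 0.000496). Between the iron forms it was 0.62 (SE 0.441, edgeR adjusted p of 0.247), and for FeCl3 over control -0.14 (SE 0.461, edgeR adjusted p of 0.819). The sign of that last value turned without control replicate 3 (0.81), without FeCl3 replicate 1 (0.10), with total counts only (0.11), in limma voom (0.12) and with a mean of at least 5 CPM (0.03). Its control mean of 2.08 CPM rested on replicate 3. Without that library the control mean was 1.06 CPM, the model stood 1.10 above control with Fe2O3 particles and no longer met the rule.

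The model wlab.1257.1 was the most abundant member. It stood at 230, 249 and 224 CPM with ZnO particles and at 480, 524 and 442 CPM with ZnSO4. With Fe2O3 particles it was at 121, 133 and 89.3 CPM, with FeCl3 at 70.4, 111 and 136 CPM, and in controls at 93.1, 67.8 and 200.1 CPM. Its zinc groups overlapped neither with each other nor with any other library, while both iron groups lay inside the range of the controls. It was lower with ZnO particles than with ZnSO4 (log2 fold change -1.03, SE 0.311, edgeR adjusted p of 0.014). With FeCl3 against control the log2 fold change was -0.19 (SE 0.309, edgeR adjusted p of 0.644), and its sign turned without control replicate 3 (0.40), without FeCl3 replicate 1 (0.06) and with total counts only (0.08). It kept its place in the set whichever library was left out.

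**Figure D3:**
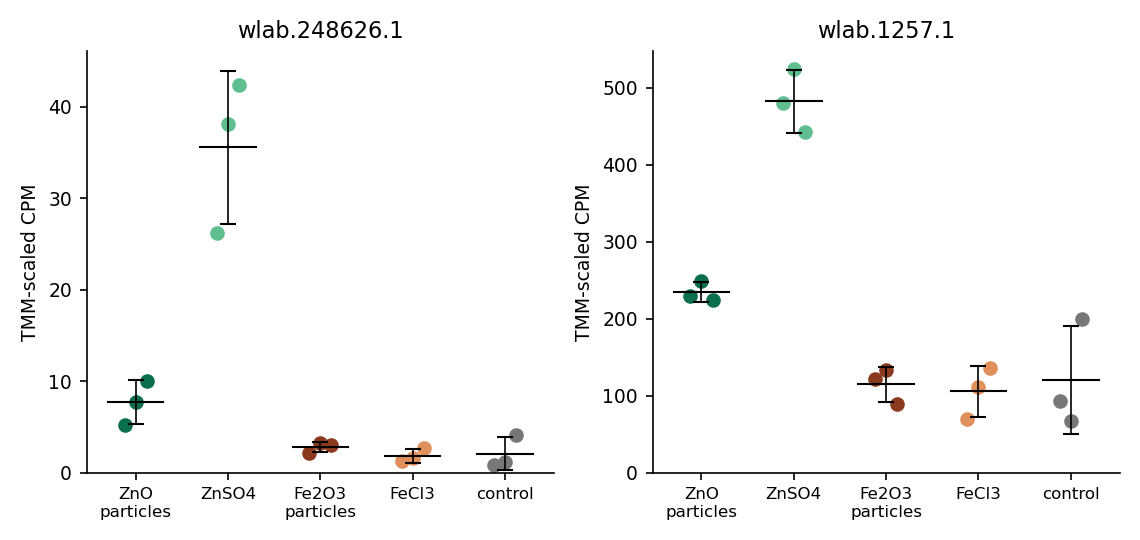
TMM-scaled CPM of wlab.248626.1 and wlab.1257.1 in each library (points) with the group mean and SD (n = 3 each). ZnSO4 libraries are highest and ZnO libraries next in both; control replicate 3, at 4.14 and 200.1 CPM, is the highest control in both.

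ZnSO4 tended to give the higher level of the zinc forms in the chosen members. The rule did not compare these forms with each other, but it set limits on both against control and against iron. It also capped Fe2O3 particles and not FeCl3, so the counts below are not free of the choice of members. The part of these limits was not tested. ZnO particles had the higher mean in 9 members and ZnSO4 in 37, and the libraries did not overlap in 5 members with ZnO above (33.3% of all tested models) and in 27 with ZnSO4 above (30.0% of all). At an adjusted p under 0.05 in edgeR's test, 19 members were lower with ZnO particles than with ZnSO4 (41.3%, beside 20.4% of all tested models). Only 3 were higher with ZnO particles (6.52%, beside 22.6% of all), and 24 passed in neither direction. The median log2 fold change of ZnO particles over ZnSO4 was -0.43 over the members, with quartiles of -0.74 and -0.10, and 0.01 over all tested models. Leaving out a zinc library made the scaling itself move, taking the median of all models from 0.01 to between -0.13 and -0.09. With the scaling factors held, 11 of the 19 lower calls and 2 of the 3 higher calls held whichever zinc library was left out, and the lower count was 12 without ZnO replicate 3 or ZnSO4 replicate 1. With the factors recomputed, 16 lower calls and 1 higher call held, and the higher count was 1 without ZnO replicate 1 or 2 or ZnSO4 replicate 1 or 2.

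The widest gap between the zinc forms belonged to member 9. It stood at 2.74, 2.69 and 3.35 CPM with ZnO particles and at 21.6, 35.7 and 36.6 CPM with ZnSO4. The log2 fold change was -3.41 (SE 0.632, edgeR adjusted p of 0.000505), and the libraries of the forms did not overlap. Its iron and control values were low and uneven, at 1.89, 0.889 and 1.27 CPM with Fe2O3 particles, 0.459, 0.332 and 0.57 CPM with FeCl3, and 0.311, 0.0849 and 3.64 CPM in controls. Control replicate 3 alone thus lifted its control mean to 1.34 CPM. Its FeCl3 over control, at -1.49 (SE 0.796, edgeR adjusted p of 0.138), turned to 1.22 without that library.

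Member 4 showed the opposite order with tight replicates. It was at 29.7, 29.9 and 26.1 CPM with ZnO particles and at 18.4, 16.1 and 15.4 CPM with ZnSO4. Fe2O3 particle libraries had 9.23, 12.9 and 12.8 CPM, FeCl3 libraries 7.71, 7.62 and 8.98 CPM, and controls 8.92, 6.87 and 10.4 CPM. The 3 ZnO libraries were above all others, and the 3 ZnSO4 libraries came next. The log2 fold change of ZnO particles over ZnSO4 was 0.78 (SE 0.161, edgeR adjusted p of 0.00111), and this call held under every single library left out, with the factors held or recomputed.

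The other higher calls with ZnO particles were members 12 and 21. Member 12 was at 10.9, 11.5 and 11.3 CPM with ZnO particles, 8.79, 8.34 and 7.68 CPM with ZnSO4, 6.34, 5.92 and 6.38 CPM with Fe2O3 particles, 3.86, 4.70 and 5.13 CPM with FeCl3, and 6.09, 5.01 and 5.69 CPM in controls. Its log2 fold change of ZnO particles over ZnSO4 was 0.45 (SE 0.135, edgeR adjusted p of 0.0139), and the groups did not overlap. The call was lost without ZnSO4 replicate 3 with the factors held, and without any 1 of the 6 zinc libraries with the factors recomputed, where the value was as low as 0.30. For member 21 the log2 fold change was 0.57 (SE 0.143, edgeR adjusted p of 0.00451). It held throughout with the factors held and was lost in 4 of 6 cases with them recomputed.

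Members 6 and 10 had even zinc forms. Member 10 was at 90, 90.1 and 75.9 CPM with ZnO particles, 86.5, 78.3 and 68.3 CPM with ZnSO4, 45.3, 46.6 and 34.8 CPM with Fe2O3 particles, 37.9, 47.2 and 44.7 CPM with FeCl3, and 64.5, 40.02 and 54.5 CPM in controls. Zinc libraries of both forms overlapped with each other and lay above all the rest. The log2 fold change of ZnO particles over ZnSO4 was 0.14 for member 10 (SE 0.167, edgeR adjusted p of 0.523) and 0.08 for member 6 (SE 0.236, edgeR adjusted p of 0.804). Member 6 ran from 7.62 to 9.80 CPM with ZnO particles and from 8.04 to 9.52 CPM with ZnSO4, against 3.91 to 4.93 CPM with Fe2O3 particles, 2.20 to 4.49 CPM with FeCl3 and 3.39 to 5.41 CPM in controls.

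Member 14 combined even iron forms with unequal zinc forms. It was at 50.6, 48.3 and 51.7 CPM with ZnO particles and at 97.5, 109 and 117 CPM with ZnSO4, against 27.4, 22.8 and 38 CPM with Fe2O3 particles, 29.3, 27.1 and 32.1 CPM with FeCl3, and 25.3, 31.8 and 41.8 CPM in controls. The ZnSO4 libraries were all above the ZnO libraries, and the iron libraries overlapped with controls. It was lower with ZnO particles than with ZnSO4, at a log2 fold change of -1.10 (SE 0.185, edgeR adjusted p of 0.000233), while Fe2O3 particles over FeCl3 stood at 0.000512 (SE 0.185, edgeR adjusted p of 0.999).

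The rule did not compare the iron forms with each other either. Fe2O3 particles had the higher fitted level in 34 members and FeCl3 in 12. The libraries did not overlap in 13 members with Fe2O3 above (28.6% of all tested models) and in 4 with FeCl3 above (29.3% of all). In edgeR's test 13 members were higher with Fe2O3 particles than with FeCl3 (28.3%, beside 27.5% of all tested models) and 5 were lower (10.9%, beside 27.7% of all). The share higher was thus near the background, and the share lower was under it. The rule capped Fe2O3 particles and set each iron form against the zinc form of its kind. The part of these limits in the counts was not tested. The median log2 fold change of Fe2O3 particles over FeCl3 was 0.15 over the members and -0.02 over all tested models. Without FeCl3 replicate 1 the 13 higher calls became 8, or 7 with the scaling factors held. The 5 lower calls became 1 without Fe2O3 replicate 3 or FeCl3 replicate 3 and 2 without FeCl3 replicate 2. Whichever iron library was left out, 7 of the 13 higher calls held with the factors recomputed and 6 with them held. Of the 5 lower calls, 1 held throughout in either case.

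Member 18 had the largest fold between the iron forms. Fe2O3 particle libraries were at 16.3, 17.1 and 12.8 CPM and FeCl3 libraries at 3.29, 6.02 and 6.13 CPM, a log2 fold change of 1.59 (SE 0.294, edgeR adjusted p of 0.00031). Its zinc libraries were close together, at 25.2, 24.9 and 25.1 CPM with ZnO particles and 21.4, 19.4 and 22.2 CPM with ZnSO4, and controls were at 4.63, 6.87 and 13.1 CPM. Member 8 had a like pattern at a higher level. It was at 121, 138 and 138 CPM with ZnO particles, 126, 104 and 111 CPM with ZnSO4, 71.9, 89.3 and 52.4 CPM with Fe2O3 particles, 29.4, 47.4 and 36.1 CPM with FeCl3, and 37.3, 28.9 and 42 CPM in controls. In both, Fe2O3 particles stood between the zinc exposures and FeCl3 without overlap, and the FeCl3 libraries overlapped with controls. For member 8 the log2 fold change of Fe2O3 particles over FeCl3 was 0.92 (SE 0.199, edgeR adjusted p of 0.00105).

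For part of the set, particles differed from salts in another way with zinc than with iron. In edgeR's test of the interaction, 18 members were lower (39.1%, beside 13.9% of all tested models), meaning that particle over salt was smaller in zinc than in iron. None was higher (0, beside 14.4% of all), also at an unadjusted p under 0.05 and in DESeq2 and limma voom, while the unadjusted count of lower members was 24. The median interaction was -0.66 over the members and 0.08 over all tested models. The same quantity is the zinc minus iron difference between particles less that between salts, and the rule set a floor of 0.5 under both. Over all tested models the difference between the salts was the more spread, with fitted quartiles of -0.55 and 0.42, against -0.28 and 0.26 between the particles. The part of that wider spread and of the floor in the count was not tested.

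Among the 18, 13 were also lower with ZnO particles than with ZnSO4 and 9 were higher with Fe2O3 particles than with FeCl3, both being components of the interaction from the same libraries. Member 34 did both. It was at 18.8, 16 and 16.6 CPM with ZnO particles and at 51.4, 23.7 and 24.3 CPM with ZnSO4, against 14.4, 11.6 and 8.31 CPM with Fe2O3 particles and 2.95, 4.61 and 5.35 CPM with FeCl3. Its controls were at 7.25, 3.25 and 6.02 CPM, so FeCl3 alone overlapped with them. Its interaction was -2.36 (SE 0.461, edgeR adjusted p of 0.00165). ZnSO4 replicate 1 stood far above its partners. Without it the log2 fold change between the zinc forms lost its call, at -0.63 with the scaling factors recomputed and -0.48 with them held. The interaction kept its own call without that library. With the factors held, the call between the zinc forms was also lost without ZnO replicate 2 or 3.

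Member 31 had the same pattern at a lower level, at 7.11, 5.97 and 5.36 CPM with ZnO particles and 25.7, 14.6 and 15.9 CPM with ZnSO4, against 4.69, 3.63 and 3.53 CPM with Fe2O3 particles and 1.22, 2.08 and 2.52 CPM with FeCl3. Controls, at 1.71, 2.29 and 4.93 CPM, overlapped with both iron forms. The interaction was -2.64 (SE 0.478, edgeR adjusted p of 0.000974). Member 11 was at 100.1, 66.7 and 73.7 CPM with ZnO particles and at 279, 248 and 243 CPM with ZnSO4, against 66.1, 40.6 and 29.7 CPM with Fe2O3 particles and 26.3, 18.5 and 29.1 CPM with FeCl3. Its controls spread from 14.8 CPM in replicate 2 to 107 CPM in replicate 3, so ZnO particles overlapped with them. Its interaction was -2.56 (SE 0.664, edgeR adjusted p of 0.00975), and its zinc forms differed by -1.67 (SE 0.472, edgeR adjusted p of 0.0098).

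Member 13 reached the interaction by smaller steps. It was at 18.7, 18 and 17.2 CPM with ZnO particles and 27.7, 25.5 and 24.8 CPM with ZnSO4, against 12.7, 10.7 and 7.67 CPM with Fe2O3 particles and 4.76, 7.37 and 7.53 CPM with FeCl3. Controls were at 8.61, 5.06 and 8.79 CPM. Each zinc form lay apart from the other and above every iron and control library. Its interaction was -1.19 (SE 0.308, edgeR adjusted p of 0.00946), while the step between the zinc forms alone was -0.53 (edgeR adjusted p of 0.0581). That step passed the threshold under 6 other scalings, filters or tools and without 3 of the 6 zinc libraries, with the scaling factors recomputed. With the factors held it passed in 0 of these 6 omissions, with an edgeR adjusted p of up to 0.142.

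**Figure D4:**
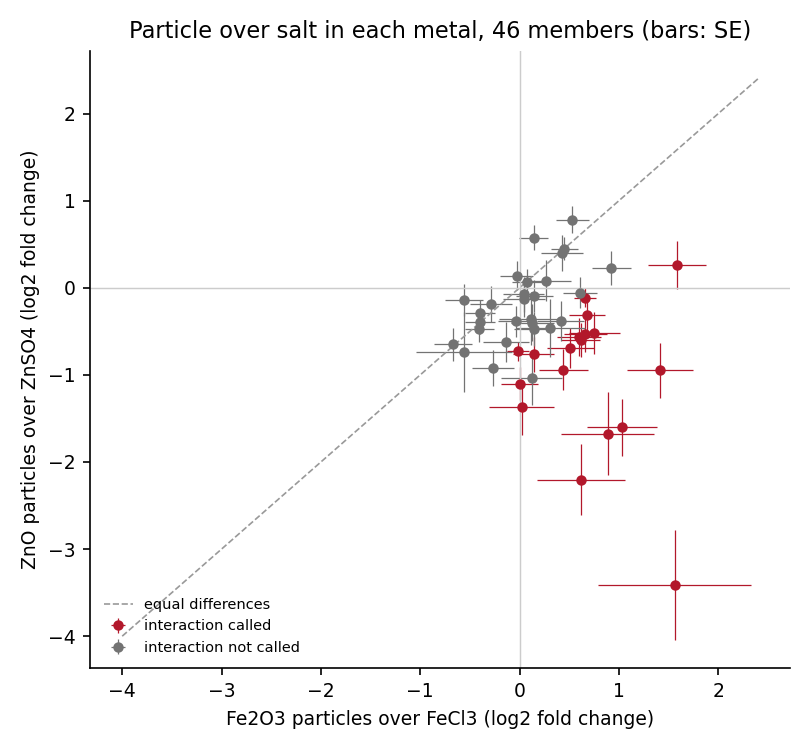
Log2 fold change of ZnO particles over ZnSO4 (vertical) against Fe2O3 particles over FeCl3 (horizontal) for each of the 46 members, with SE bars; the dashed line marks equal differences. The 18 members with a called interaction all lie below that line, down to -3.41 for member 9.

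FeCl3 stood above control in some members and below it in others. The rule set no limit on this contrast, although it used both groups in others. FeCl3 had the higher mean in 21 members and control in 25, and the libraries did not overlap in 10 with FeCl3 above (23.0% of all tested models) and in 2 with control above (24.6% of all). In edgeR's test 12 were higher with FeCl3 than in controls (26.1%, beside 20.5% of all tested models), 3 were lower (6.52%, beside 23.4% of all) and 31 passed in neither direction. The share higher was near the background, and the share lower was under it. Both groups entered other limits of the rule, and the part of those limits in these shares was not tested. The median log2 fold change was -0.08 over the members and 0.01 over all tested models. These counts turned on single libraries. With the factors held or recomputed, without control replicate 2 they were 7 higher and 9 lower, without FeCl3 replicate 3 the higher count was 7, and without FeCl3 replicate 1 or control replicate 3 the lower count was 0. Of the 12 higher calls 6 held under every single library left out, and of the 3 lower calls 0 did.

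The 6 steady risers with FeCl3 were members 25, 26, 32, 38, 39 and 40. Member 25 stood at 38.3, 34.7 and 40.3 CPM with FeCl3, against 22.8, 13.2 and 13.6 CPM in controls, a log2 fold change of 1.19 (SE 0.195, edgeR adjusted p of 0.000233). It was at 40, 36.4 and 34 CPM with ZnO particles, 62.5, 59.2 and 51.9 CPM with ZnSO4, and 29.2, 23 and 18.9 CPM with Fe2O3 particles. FeCl3 here overlapped with ZnO particles and lay above Fe2O3 particles, so the ZnO libraries were not set apart from FeCl3. Member 40 was alike, at 28.8, 33.4 and 34.5 CPM with FeCl3, against 21, 16.7 and 16 CPM in controls (log2 fold change 0.85, SE 0.148, edgeR adjusted p of 0.000421). Its ZnO libraries, at 33.6, 36.6 and 35.9 CPM, overlapped with those of FeCl3. Member 38 was at 5.49, 4.85 and 6.72 CPM with FeCl3, against 3.17, 1.84 and 2.45 CPM in controls, at a log2 fold change of 1.20 (SE 0.224, edgeR adjusted p of 0.000704).

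The iron forms are set against the same controls, and the rule capped Fe2O3 particles but not FeCl3. By their means, both iron means were above control in 20 members and below it in 11. Fe2O3 particles were above and FeCl3 below in 14, and the reverse held in 1.

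The 3 lower calls had their largest fold in member 33. It was at 37, 58.6 and 56.8 CPM with FeCl3, against 76.5, 62.4 and 101 CPM in controls, without overlap and with a log2 fold change of -0.66 (SE 0.198, edgeR adjusted p of 0.0149). The call was lost without FeCl3 replicate 1, at -0.45, or control replicate 3. Fe2O3 particle libraries, at 79.8, 88.9 and 63.8 CPM, overlapped with controls. Its zinc libraries were at 108, 120 and 118 CPM with ZnO particles and 206, 160 and 160 CPM with ZnSO4.

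**Figure D5:**
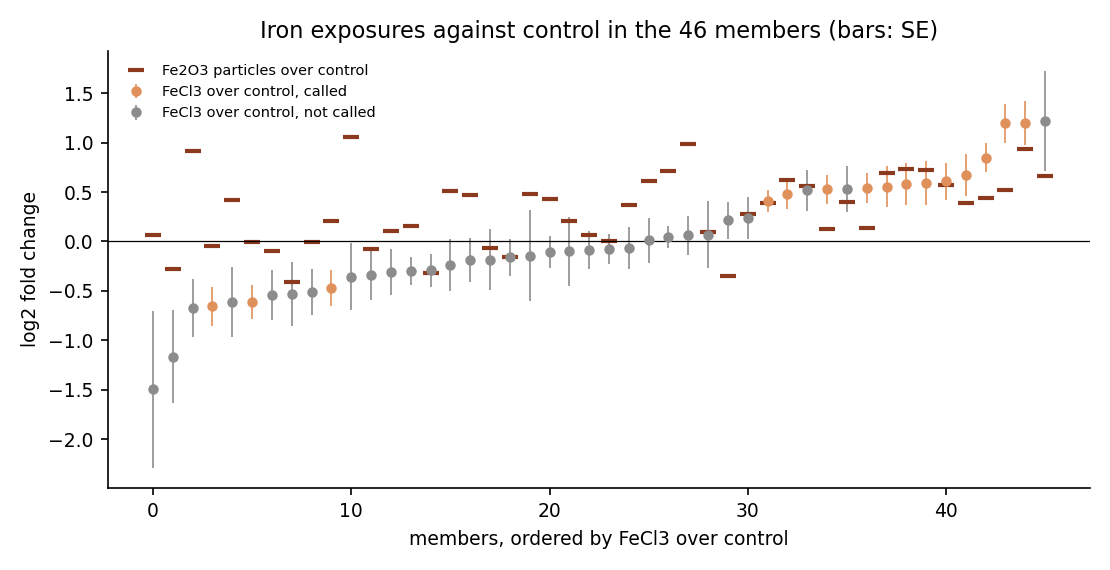
Log2 fold change over control of FeCl3 (points with SE bars, coloured where called) and of Fe2O3 particles (dashes) for the 46 members, ordered by FeCl3. FeCl3 runs from -1.49, a value of member 9 whose sign turns without control replicate 3, to 1.22, with 12 called higher and 3 lower, and Fe2O3 particles stay within -0.41 and 1.06.

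A group of 11 members met the rule whichever of the 15 libraries was left out and also under 3 other scalings. These were relative log expression factors, total counts only, and the median model of each exposure set to control. The other TMM reference libraries were not part of this check. The group holds wlab.1257.1 and members 4, 5, 6, 13, 15, 16, 19, 21, 26 and 39. Member 5 was at 7.75, 10.1 and 9.9 CPM with ZnO particles and at 33.1, 16.9 and 22.2 CPM with ZnSO4. Its other libraries ran from 3.61 to 5.10 CPM with Fe2O3 particles, 2.68 to 5.63 CPM with FeCl3 and 2.27 to 5.52 CPM in controls, all below every zinc library. Its log2 fold change of ZnO particles over ZnSO4 was -1.37 (SE 0.319, edgeR adjusted p of 0.00282).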

How the data were processed

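The authors deposited whole-number counts per gene model in 1 table for all 15 libraries, with no normalization visible in the values. Per the submitters' processing notes, the processing named STAR, RSEM 1.3.0, Trim Galore 0.4.0 and CASAVA 2.17, while the name of the deposited table speaks of HTSeq, so the counting program is not settled. Neither the build nor the annotation is given in the sources used here.

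Counts were scaled with TMM factors over all 10300 rows for the rule. For tests, filterByExpr (minimum count 10) kept 10012 models, and 1 quasi-likelihood model of group was fitted with edgeR 4.0.16 in R 4.3.3, with Benjamini-Hochberg adjustment over all models and a threshold of 0.05. Each SE was derived from the fold change and its F statistic. Libraries of a group differed by more than sampling noise (chi-square per degree of freedom of 14.7 or more). On simulated counts for ZnO particles against ZnSO4, with 9983 models tested, 89% of 2-fold and 36% of 1.5-fold changes were recovered and 9 unchanged models were called. Changes were simulated with ZnO particles alone, in both directions, and in a small part of the models averaging 5 CPM or more. In the data 22.6% of models were called higher and 20.4% lower between the zinc forms, so these rates need not hold there.

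The members and the choice of contrasts were made with earlier results of these data known. Identifiers were printed for the first 2 members by the smaller zinc minus iron difference whose zinc libraries lay above all iron and control libraries of their form. Members described without an identifier were taken from the first 10 that met the same condition and from the called extremes of each contrast. Members 11, 21, 31, 34 and 40 and the 11 stable ones were chosen after their values were seen. Alternatives used DESeq2 1.42.0, limma 3.58.1, other scalings and filters, and left-out libraries, with the scaling factors recomputed or, as added after seeing the data, held.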

Additional observations from a re-analysis of the deposited data

Results flagged for a closer look

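The particle over salt difference was itself different in zinc and iron, by edgeR's interaction test, for 18 members, all with the lower value in zinc (39.1%, beside 13.9% of all tested models lower and 14.4% higher). The rule set a floor of 0.5 under both of the zinc minus iron differences that this interaction compares. Of those named above, wlab.248626.1 had an interaction of -2.82, member 5 of -1.40, member 9 of -4.97, member 11 of -2.56, member 13 of -1.19, member 14 of -1.10, member 18 of -1.33, member 31 of -2.64, member 32 of -0.71, member 33 of -1.21 and member 34 of -2.36 (log2 scale). With the scaling factors recomputed, the call of member 5 was lost without ZnO replicate 1, ZnSO4 replicate 1 or Fe2O3 replicate 2, and that of member 18 without Fe2O3 replicate 2. With the factors held, the call of member 5 was lost in 7 of 12 omissions, and that of member 18 in 2, Fe2O3 replicate 2 or FeCl3 replicate 1. Of the 18 calls, 15 held under every one of the 12 exposed libraries left out in turn, with the factors recomputed or held. The part of the wider spread between the salts was not tested.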

How the results depend on the processing

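The size of the set depends on the scaling. TMM measures each library against 1 library, here Fe2O3 replicate 3, and the median model at 5 CPM or more lay -0.14 from control with ZnO particles, -0.30 with ZnSO4, -0.10 with Fe2O3 particles and -0.04 with FeCl3. Total counts only moved these medians to 0.24, 0.22, 0.12 and 0.22 and gave 187 models, 42 of them among the 46. Setting the median model of every exposure to the control gave 89, and control replicates 1, 2 and 3 as the TMM reference gave 95, 86 and 77 (these alternatives were chosen after seeing the data). Differences of at least 1 left 3. Leaving out each library gave 29 to 86, and 40 to 85 with the TMM reference held, which covers the 14 libraries other than the reference itself.

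With the 46 held fixed, members higher with ZnO particles than with ZnSO4 numbered 1 with total counts only and 5 with only the groups compared, and those lower 10 at an adjusted p under 0.01 and 29 with only the groups compared. Leaving out libraries gave 1 to 3 higher and 12 to 21 lower, the range covering factors recomputed and held. For Fe2O3 particles over FeCl3 the stricter threshold gave 6 higher and 1 lower; the lower count was 1 with a mean of at least 5 CPM or only the groups compared and 2 with centring. Leaving out libraries gave 7 to 16 higher (8 to 16 with factors recomputed) and 1 to 5 lower. For FeCl3 over control the stricter threshold gave 5 higher and 0 lower, only the groups compared 5 and 1, and total counts only 0 lower. Leaving out libraries gave 7 to 14 higher and 0 to 9 lower. The cause of these moves was not tested. The interaction counts were 0 higher and 12 to 26 lower. The interaction of wlab.1257.1, at -1.16 with an edgeR adjusted p of 0.0601, was called under 10 of 34 alternatives.

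Same-numbered libraries deviated together in some pairs of groups and not in others. Of 30 correlations, which ran from -0.46 to 0.68, 17 were over 0.1. Among the 3 libraries of each other group, the own number fitted best in 34 of 60 cases. With the replicate block, members called were 3 higher and 18 lower between the zinc forms, 13 and 5 between the iron forms, 13 and 2 for FeCl3, and 0 and 18 for the interaction.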
